A study of Rattus norvegicus with 12 samples.

Results

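Epicardial and mesothelial genes were followed in RNA of neonatal rat heart cells after knockdown of Yap, a transcriptional coactivator that the Hippo kinases restrain. The set is 10 genes given by symbol: the transcription factor genes Wt1, Tbx18 and Tcf21, the retinoic acid enzyme gene Aldh1a2, the surface protein genes Upk3b, Msln and Pdpn, and the keratin genes Krt8, Krt18 and Krt19. Rows of the deposited table were taken where the gene symbol matched, which found 9 of the 10 among 14636 genes; Upk3b was not analysed here. Of these 9, 8 had a mean of at least 0.5 FPKM (fragments scaled to transcript length and to the mapped total of the library) over the 12 libraries and were tested, and Krt19 did not. All 8 tested genes also had a group mean above 0.5 FPKM in each of the 4 groups, the lowest being Krt18 at 0.737 FPKM in fibroblasts with Yap siRNA.

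The cells were primary cardiomyocytes (CM) and cardiac fibroblasts (CF) of Sprague Dawley rats aged 2 days, parted on a Percoll gradient and grown in DMEM with 15% fetal bovine serum. Each cell type received either a mix of 2 siRNAs against Yap at 25 nM each (CM_yap and CF_yap) or a universal negative control siRNA (CM_neg and CF_neg), given after 16 h, and RNA was taken 48 h after transfection. Each of the 4 groups held 3 libraries of poly-A RNA. Whether libraries within a group came from separate animals or cultures is not stated in the labels, so p-values measure only how far these libraries spread, which may be technical.

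The epicardium is the mesothelial sheet that covers the heart. During development some of its cells undergo an epithelial to mesenchymal transition, enter the muscle wall and give rise to fibroblasts and to the mural cells of the coronary vessels, and the sheet is a source of retinoic acid. WT1, TBX18 and TCF21 are transcription factors of the epicardium and of its progeny, TCF21 being linked to the fibroblast fate, while mesothelin, podoplanin and the simple keratins belong to the epithelial state of the sheet. Podoplanin is also made by lymphatic endothelium and by activated fibroblasts, and mature cardiomyocytes make little keratin 8 or keratin 18.

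In fibroblasts, 4 of the 8 tested genes rose after Yap knockdown: Pdpn, Aldh1a2, Wt1 and Tbx18, to between 148.7% and 157.6% of their control means. Krt8 fell. Over all 11302 genes tested, 20.4% rose and 10.5% fell in fibroblasts, 30.9% in all. In cardiomyocytes 5 of the 8 fell, namely Krt18, Pdpn, Krt8, Msln and Wt1, and Tbx18 rose, where 28.7% of all genes fell and 21.0% rose, 49.8% in all. Krt18 had the greatest fall of the set, to 12.7% of its control mean. By the test of the difference between the effects, 5 of the 8 were lower in cardiomyocytes, where 23.7% of all genes were lower and 11.7% higher, 35.3% in all. The median of that difference was -0.92 for the 8 and -0.13 for all genes. The libraries of the knockdown and control groups did not overlap for 5 of the 8 genes in cardiomyocytes, against 53.2% of all genes, and for 6 of the 8 in fibroblasts, against 49.1%. The share of members that did not overlap in cardiomyocytes was thus near that of all genes.

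**Figure D1:**
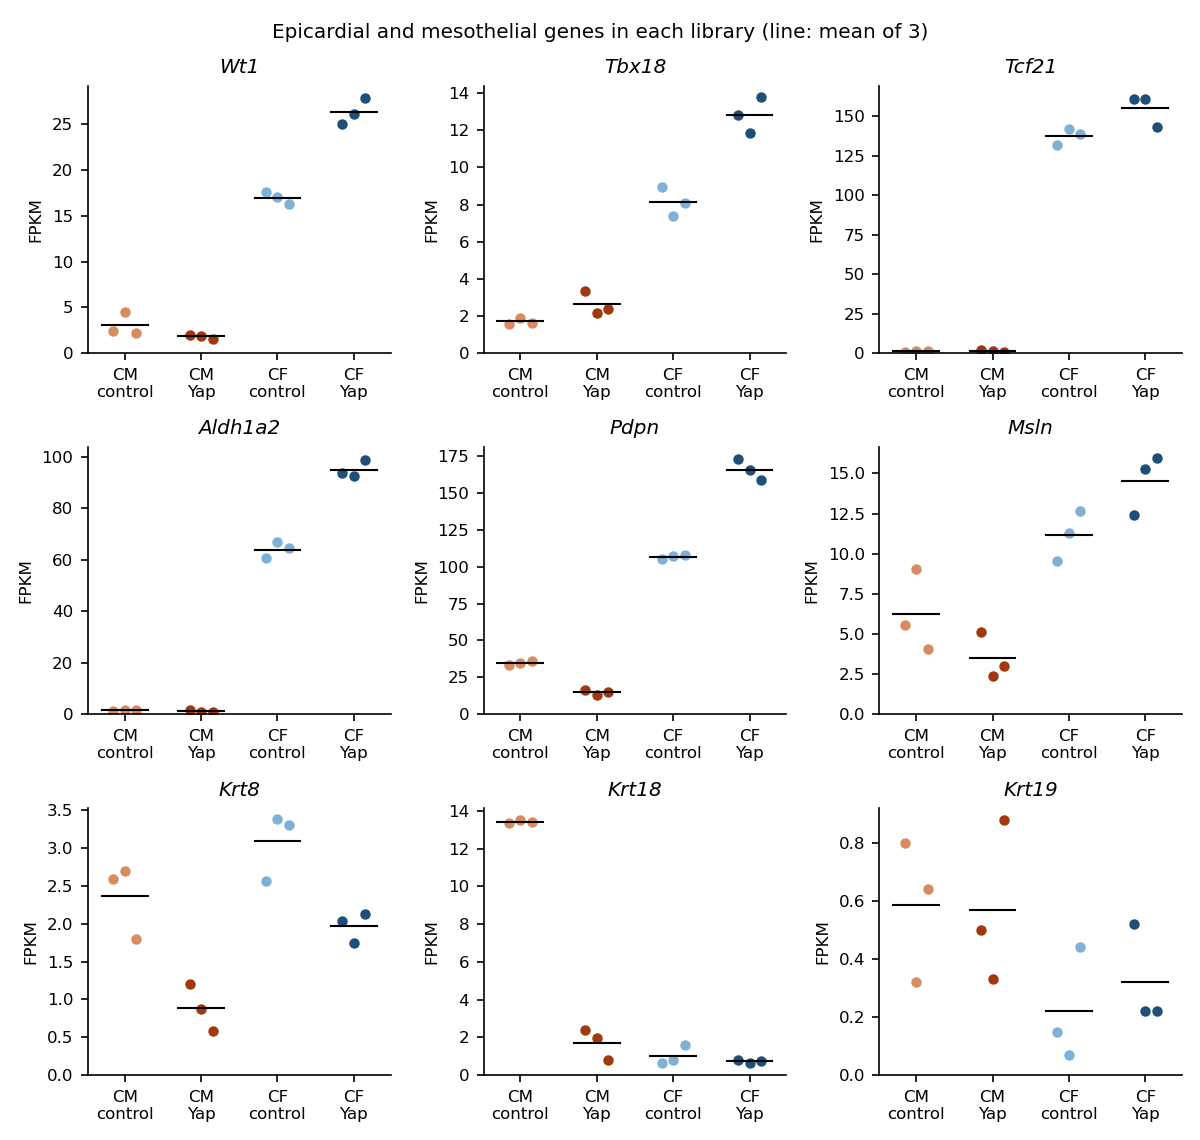
FPKM of each of the 9 genes (panels with a linear axis from 0, each on its own scale) in each of the 12 libraries, with 1 point per library, the 4 groups along the horizontal axis and a line at each group mean. Wt1, Tbx18, Tcf21, Aldh1a2, Msln and Pdpn have their higher values in fibroblasts, and Krt18 its higher values in control cardiomyocytes, at 13.36 to 13.51 FPKM.

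The targeted gene, Yap1, fell to 9.11% of its control mean in cardiomyocytes and to 12.1% in fibroblasts, with no overlap between groups. Library sums ran from 563193.5 to 620119.3 FPKM; depth in reads is unknown because the table holds no counts. The labelled cell types were checked by summed marker levels: 10 cardiomyocyte markers, of which 9 are in the table, summed to 28340 to 31825 FPKM in CM_neg and 980 to 1036 FPKM in CF_neg, and 10 fibroblast markers to 348 to 504 FPKM and 16647 to 17620 FPKM. The cultures are bulk samples, in which fewer cells of a type and less RNA per cell cannot be told apart. Fold changes below are log2 differences on the log2(FPKM + 1) scale, with the standard error of limma's fit after the sign ±. They understate the change of genes with few FPKM. Adjusted p is limma's, by the Benjamini-Hochberg method over 11302 genes, and a gene was called at an adjusted p under 0.05.

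Promoters of 4 genes are shown: those of Krt18 and Pdpn, whose effects differed most between the cell types, that of Krt8, the neighbour of Krt18, and that of Aldh1a2, which holds a match to the WT1 motif. Each is the RefSeq window of 250 bases before to 50 after the gene's start on the rat build GRCr8, 5′ to 3′ on the gene's own strand; the deposited values were made on another build, rn6. Capitals mark matches, on either strand, to 6 short motifs that were searched by letters. Krt18 lies at chr7:135035918-135036217 on the plus strand, Krt8 at chr7:135010290-135010589 on the minus strand, Pdpn at chr5:160918910-160919209 on the minus strand and Aldh1a2 at chr8:80758391-80758690 on the plus strand.
Krt18: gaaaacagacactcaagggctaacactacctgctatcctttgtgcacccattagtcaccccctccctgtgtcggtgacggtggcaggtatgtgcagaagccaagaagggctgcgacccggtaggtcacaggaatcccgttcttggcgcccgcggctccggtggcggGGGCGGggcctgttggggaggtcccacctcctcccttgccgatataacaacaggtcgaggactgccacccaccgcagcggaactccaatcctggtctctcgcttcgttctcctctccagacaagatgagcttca
Krt8: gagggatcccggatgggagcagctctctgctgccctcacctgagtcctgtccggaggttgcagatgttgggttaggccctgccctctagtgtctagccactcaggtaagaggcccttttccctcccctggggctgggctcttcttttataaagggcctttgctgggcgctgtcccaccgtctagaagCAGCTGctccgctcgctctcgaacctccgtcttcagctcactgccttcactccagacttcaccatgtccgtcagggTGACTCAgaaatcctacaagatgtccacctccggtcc
Pdpn: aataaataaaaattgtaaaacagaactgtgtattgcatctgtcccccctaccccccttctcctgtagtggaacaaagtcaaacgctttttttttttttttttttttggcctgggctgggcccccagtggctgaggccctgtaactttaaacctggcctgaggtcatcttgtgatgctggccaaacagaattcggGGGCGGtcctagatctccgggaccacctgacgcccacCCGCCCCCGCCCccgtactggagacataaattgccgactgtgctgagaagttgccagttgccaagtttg
Aldh1a2: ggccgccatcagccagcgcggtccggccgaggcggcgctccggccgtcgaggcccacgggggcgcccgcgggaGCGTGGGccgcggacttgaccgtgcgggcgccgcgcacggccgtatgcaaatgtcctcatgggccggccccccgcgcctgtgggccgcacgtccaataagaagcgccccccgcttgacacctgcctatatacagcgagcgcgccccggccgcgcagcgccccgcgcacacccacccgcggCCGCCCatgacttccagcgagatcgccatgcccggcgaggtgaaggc

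The motif of TEAD factors, through which YAP binds DNA, was searched as CATTCC and stood in none of the 7 promoters with a RefSeq entry (Wt1, Tbx18, Tcf21, Aldh1a2, Krt8, Krt18 and Pdpn), against 14.2% of 33469 rat promoters of the same length. The WT1 motif GCGTGGG was found in Aldh1a2 alone of the 7, starting at -177 from the gene's start, and in 4.33% of all promoters. Krt8 held the E-box CAGCTG at -63, found in 15.1% of all promoters, and the AP-1 motif TGANTCA at +14, found in 7.33%. The SP1 motif GGGCGG, found in 33.1% of all promoters, stood once in Krt18 at -84, once in Aldh1a2 at +4, and in Pdpn at -56, -19 and -13, the last 2 side by side. The T-box motif GGTGTGA, found in 3.83% of all promoters, was in none of the 7. GC content ran from 51.0% in Pdpn to 76.0% in Aldh1a2. These matches describe the letters of these windows and show no binding.

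Wt1 encodes a zinc finger factor needed for the epicardium to form mesenchymal cells. In fibroblasts Wt1 stood at 17.62, 17.04 and 16.29 FPKM under the control siRNA, against 25.06, 26.08 and 27.87 FPKM after knockdown. The lowest library with Yap siRNA lay above the highest control. The rise was 0.60 ± 0.16 (limma adjusted p = 0.00886). In cardiomyocytes Wt1 stood at 2.43, 4.52 and 2.14 FPKM under the control siRNA, against 2.01, 1.84 and 1.57 FPKM after knockdown. These groups did not overlap either, but control library 2 lay well above the other control libraries. The log2 difference was -0.48 ± 0.16 (limma adjusted p = 0.0199). It was -0.23 (adjusted p = 0.0867) without control library 2, and the call was also lost without CM_yap library 3 (adjusted p = 0.0654) and in a fit of the cardiomyocyte libraries alone (adjusted p = 0.084). The effect in cardiomyocytes differed from that in fibroblasts by -1.08 ± 0.22 (limma adjusted p = 0.00186). Control library 2 of the cardiomyocytes also had the highest summed fibroblast markers of its group, 503.96 FPKM against 445.17 and 347.72 FPKM. Its summed endothelial markers, 664.64 FPKM, were close to those of library 1, 654.37 FPKM, and above those of library 3, 559.58 FPKM. Leukocyte markers (129.22 FPKM against 106.02 and 106.22 FPKM) were highest there too. So were smooth muscle and pericyte markers (210.63 FPKM against 195.95 and 193.41 FPKM). Summed cardiomyocyte, Schwann cell and lymphatic endothelial markers were highest in library 3. The part of these markers in the Wt1 result was not tested. Of the 10 fibroblast markers, 4 rose and 1 fell in cardiomyocytes, where 21.0% of all genes rose and 28.7% fell, 49.8% in all. In fibroblasts 5 of them rose, where 20.4% of all genes rose.

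Tbx18 encodes a T-box factor of the epicardium and of mural cells. Its fibroblast values were 8.96, 7.36 and 8.11 FPKM under the control siRNA and 12.85, 11.88 and 13.78 FPKM after knockdown, a rise of 0.60 ± 0.12 (limma adjusted p = 0.00174). In cardiomyocytes they were 1.58, 1.89 and 1.64 FPKM against 3.34, 2.17 and 2.35 FPKM, a rise of 0.41 ± 0.12 (limma adjusted p = 0.0118). The groups did not overlap in either cell type, and CM_yap library 1 was the highest of the cardiomyocytes. Without that library the cardiomyocyte difference was 0.27 (adjusted p = 0.0627). Tbx18 was the single member called higher in both cell types. Its 2 effects differed by -0.19 ± 0.17, which did not pass (limma adjusted p = 0.415).

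Tcf21 encodes a basic helix-loop-helix factor of epicardial cells that become fibroblasts, and it had the widest gap between the cell types of the set. Control fibroblasts held 131.81, 141.73 and 138.88 FPKM and control cardiomyocytes 0.8, 1.43 and 1.24 FPKM, which is 0.841% of the fibroblast mean. With Yap siRNA the fibroblast values were 160.77, 161.07 and 143.24 FPKM. All 3 lay above all controls, and the difference of 0.17 ± 0.14 did not pass (limma adjusted p = 0.394). In a fit of the fibroblast libraries alone it did pass (adjusted p = 0.044). The cardiomyocyte values with Yap siRNA were 1.94, 1.02 and 0.89 FPKM and overlapped the controls (0.07 ± 0.14, limma adjusted p = 0.727).

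Aldh1a2 encodes RALDH2, the enzyme that makes retinoic acid in the epicardium. Its fibroblast values were 60.69, 66.77 and 64.47 FPKM under the control siRNA and 93.73, 92.62 and 98.96 FPKM after knockdown, a rise of 0.57 ± 0.12 (limma adjusted p = 0.00174). The 2 fibroblast groups lay far apart relative to their spread. In cardiomyocytes the values were near the low end, 1.21, 1.46 and 1.45 FPKM against 1.46, 0.65 and 0.97 FPKM. These overlapped, and the difference of -0.25 ± 0.12 did not pass (limma adjusted p = 0.0906), although it did without CM_yap library 1 (-0.39, adjusted p = 0.0038). The effects differed between the cell types by -0.81 ± 0.16 (limma adjusted p = 0.0016).

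Other genes of the retinoic acid pathway were taken from a list of 25, of which 17 were tested. In fibroblasts 8 rose and 2 fell, where 20.4% of all genes rose and 10.5% fell, and the median log2 difference of the list was 0.24 against 0.07 for all genes. Rarb, a retinoic acid receptor gene, went from 2.85 to 5.31 FPKM (0.71 ± 0.10, limma adjusted p = 6.59e-05). Aldh1a3, another retinaldehyde dehydrogenase gene, went from 2.06 to 4.41 FPKM (0.84 ± 0.16, adjusted p = 0.00116). Dhrs3, which encodes an enzyme that turns retinaldehyde back to retinol, fell from 42.5 to 28.8 FPKM (-0.55 ± 0.10, adjusted p = 0.00106). With a filter of 5 FPKM the calls of that list were 6 in fibroblasts, 5 in cardiomyocytes and 4 for the difference between the cell types. Genes with a lower mean over the 12 libraries, Rarb (4.04 FPKM) and Aldh1a3 (4.07 FPKM) among them, were then not tested.

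In cardiomyocytes 4 genes of that list rose and 4 fell, a share near the 49.8% of all genes called there, and its median was -0.04 against -0.06. Dhrs9, a retinol dehydrogenase gene, fell from 8.71 to 1.88 FPKM (-1.70 ± 0.21, limma adjusted p = 1.28e-05), and Tgm2, the transglutaminase 2 gene, from 163.9 to 79.9 FPKM (-1.03 ± 0.06, adjusted p = 4.7e-09). Tgm2 rose in fibroblasts, from 45.6 to 58.9 FPKM (0.36 ± 0.06, adjusted p = 0.000157). Rxrg, a retinoid X receptor gene, rose in cardiomyocytes from 1.52 to 6.90 FPKM (1.66 ± 0.17, adjusted p = 1.83e-06). For 6 genes of the list the effect was lower in cardiomyocytes than in fibroblasts by the test of the difference, Rarb, Aldh1a3, Tgm2 and Dhrs9 among them, and for 3 it was higher, against 23.7% and 11.7% of all genes.

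Pdpn encodes podoplanin, a mucin-like membrane glycoprotein that binds the platelet receptor CLEC-2 and, through ezrin and moesin, the actin cortex. In cardiomyocytes Pdpn stood at 33.61, 34.61 and 36.28 FPKM under the control siRNA, against 16.3, 13.14 and 14.91 FPKM after knockdown. In fibroblasts it stood at 105.17, 107.12 and 107.81 FPKM under the control siRNA, against 173.29, 165.35 and 158.91 FPKM after knockdown. Within each cell type the groups lay apart by several times their spread, downwards in cardiomyocytes and upwards in fibroblasts. The log2 difference was -1.19 ± 0.07 in cardiomyocytes (limma adjusted p = 1.28e-08) and 0.63 ± 0.07 in fibroblasts (adjusted p = 1.04e-05), and the effects differed by -1.82 ± 0.10 (adjusted p = 1.52e-08). All 3 calls held under every alternative run. Pdpn in cardiomyocytes was 32.7% of the fibroblast mean with control siRNA and 8.91% with Yap siRNA.

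Podoplanin is also a marker of lymphatic endothelium, and 5 of 6 further lymphatic markers are in the table. They summed to 10.0 to 11.8 FPKM in CM_neg, 10.4 to 11.8 FPKM in CM_yap, 1.26 to 1.63 FPKM in CF_neg and 1.87 to 2.67 FPKM in CF_yap. The cardiomyocyte sum joins opposite moves: the mean of Flt4 went from 4.12 to 2.81 FPKM there and that of Prox1 from 4.44 to 5.82 FPKM. Of the 3 tested, 1 was lower and 0 were higher in cardiomyocytes, where 28.7% of all genes fell and 21.0% rose. Ccl21 was listed at 0 in all libraries of CM_neg. Summed markers of endothelium in general ran from 560 to 665 FPKM in CM_neg and from 408 to 475 FPKM in CM_yap, and from 172 to 197 FPKM in CF_neg and 219 to 239 FPKM in CF_yap. Of the 10 endothelial markers 5 fell and 1 rose in cardiomyocytes, where 28.7% of all genes fell and 21.0% rose. In fibroblasts 4 of them rose, where 20.4% of all genes rose. Within each cell type the endothelial sum and Pdpn moved the same way. Between the cell types the sum was higher in cardiomyocytes and Pdpn was lower. Eng, the endoglin gene, made up 174.2 of the mean sum of 186.7 FPKM in CF_neg and 208.8 of 229.2 FPKM in CF_yap. The part of these markers in the Pdpn result was not tested.

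Partners of podoplanin were taken from a list of 10 genes, 9 of them tested. In cardiomyocytes 1 rose and 3 fell, and in fibroblasts 3 rose and 2 fell, where 49.8% and 30.9% of all genes were called. The list medians were -0.05 in both, against -0.06 and 0.07 for all genes. Ezr, which encodes ezrin, fell in both (-0.24 ± 0.07, limma adjusted p = 0.00884, and -0.44 ± 0.07, adjusted p = 0.000209). Cd44, the hyaluronan receptor gene, fell in both as well, from 45.6 to 25.8 FPKM in cardiomyocytes (-0.80 ± 0.09, adjusted p = 3.48e-06) and from 18.6 to 14.4 FPKM in fibroblasts (-0.34 ± 0.09, adjusted p = 0.00763). Cd9, a tetraspanin gene, rose in fibroblasts from 42.2 to 76.6 FPKM (0.85 ± 0.09, adjusted p = 6.01e-06). The gene of the lectin galectin-8, Lgals8, went opposite ways, like Pdpn: -0.40 ± 0.07 in cardiomyocytes (adjusted p = 0.000262) and 0.30 ± 0.07 in fibroblasts (adjusted p = 0.00415).

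Msln encodes mesothelin, a glycoprotein anchored on the surface of mesothelial cells. Its cardiomyocyte values were 5.58, 9.07 and 4.06 FPKM under the control siRNA and 5.13, 2.38 and 3.02 FPKM after knockdown. The groups overlapped, and control library 2 was the highest, as it was for Wt1. The log2 difference was -0.67 ± 0.23 (limma adjusted p = 0.0236). The call was lost without CM_neg library 2 (-0.40, adjusted p = 0.138), CM_yap library 2 (adjusted p = 0.115) or CM_yap library 3 (adjusted p = 0.0679), in a fit of the cardiomyocyte libraries alone (adjusted p = 0.0755) and without a filter on low values (adjusted p = 0.0552). The summed fibroblast, endothelial, leukocyte, and smooth muscle and pericyte markers of that control library were each the highest of its group. Their part in the Msln result was not tested.

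In fibroblasts Msln stood at 9.53, 11.3 and 12.68 FPKM under the control siRNA, against 12.42, 15.26 and 15.97 FPKM after knockdown. The groups overlapped and the difference of 0.35 ± 0.23 did not pass (limma adjusted p = 0.261), though it did in a fit of the fibroblast libraries alone (adjusted p = 0.0465). The effects of the 2 cell types differed by -1.02 ± 0.32 (limma adjusted p = 0.0228). That difference was lost under 6 of the alternatives, with adjusted p of 0.0531 to 0.0598: without CM_neg library 2, CM_yap library 2, CF_neg library 1 or CF_yap library 3, without a filter on low values, and under quantile normalization.

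Krt18 and Krt8 encode the type I and type II keratins that pair in the filaments of simple epithelia, and the genes are neighbours on rat chromosome 7. Krt18 stood at 13.36, 13.51 and 13.42 FPKM in control cardiomyocytes and at 2.37, 1.97 and 0.79 FPKM with Yap siRNA. The 3 control libraries were nearly equal and lay far above the rest. The log2 difference was -2.46 ± 0.20 (limma adjusted p = 2.13e-07) and the call held under every alternative in which the gene was tested. In fibroblasts Krt18 was low in both groups, at 0.66, 0.8 and 1.58 FPKM against 0.81, 0.66 and 0.74 FPKM. These overlapped (-0.19 ± 0.20, adjusted p = 0.523), and the effects differed by -2.28 ± 0.28 (adjusted p = 3.25e-05).

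Krt8 did not follow the cell-type pattern of its partner. Its cardiomyocyte values were 2.59, 2.7 and 1.8 FPKM under the control siRNA and 1.21, 0.87 and 0.58 FPKM after knockdown, a log2 difference of -0.84 ± 0.15 (limma adjusted p = 0.000281). Its fibroblast values were 2.57, 3.39 and 3.31 FPKM and 2.04, 1.74 and 2.13 FPKM, a log2 difference of -0.46 ± 0.15 (adjusted p = 0.0282). Groups did not overlap in either cell type. The fibroblast call was lost with a pseudocount of 0.1 (adjusted p = 0.0659) and without CF_neg library 2 (0.101), CF_neg library 3 (0.093), CF_yap library 1 (0.0603) or CF_yap library 2 (0.0949), again as adjusted p. The 2 effects differed by -0.38 ± 0.21 (adjusted p = 0.174). Per length, the Krt18 level was 5.0 to 7.46 times that of Krt8 in the libraries of CM_neg, 1.36 to 2.26 times in CM_yap, 0.236 to 0.477 times in CF_neg and 0.347 to 0.397 times in CF_yap.

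Krt19 encodes a further simple type I keratin. It stood at 0.8, 0.32 and 0.64 FPKM in CM_neg, 0.5, 0.33 and 0.88 FPKM in CM_yap, 0.15, 0.07 and 0.44 FPKM in CF_neg and 0.52, 0.22 and 0.22 FPKM in CF_yap. Each group overlapped its neighbour in the order of the means, and at 0.424 FPKM over the 12 libraries it was not tested. The sum of the simple type I keratins Krt18 and Krt19 ran from 13.83 to 14.16 FPKM in CM_neg. That of the simple type II keratins Krt8 and Krt7 ran from 6.22 to 8.76 FPKM. In CM_yap these sums ran from 1.67 to 2.87 and from 2.13 to 2.87 FPKM. Other keratin genes, such as Krt10, were not part of these sums.

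Of 40 further keratin genes listed, 27 are in the table and 4 were tested. In cardiomyocytes 1 rose and 1 fell, and in fibroblasts 1 fell, where 49.8% and 30.9% of all genes were called. Krt7, another simple type II keratin gene, went in cardiomyocytes from 5.55, 6.06 and 4.42 FPKM to 0.92, 2 and 2.09 FPKM, a log2 difference of -1.27 ± 0.17 (limma adjusted p = 2.6e-05). Krt10, a keratin gene of differentiated epidermis, rose there from 2.40 to 5.12 FPKM (0.85 ± 0.11, adjusted p = 2.27e-05). Krt14, a keratin gene of basal epithelia, fell in fibroblasts from 2.25 to 1.07 FPKM (-0.66 ± 0.18, adjusted p = 0.0119), a call lost with a pseudocount of 0.1 and without CF_neg library 3 or CF_yap library 1. The reference names 7 further Krt18 copies and 1 Krt8 copy by symbol, none of them a row of the deposited table, so reads of such copies may stand under the parent genes and the values of Krt18 and Krt8 are uncertain to that extent.

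**Figure D2:**
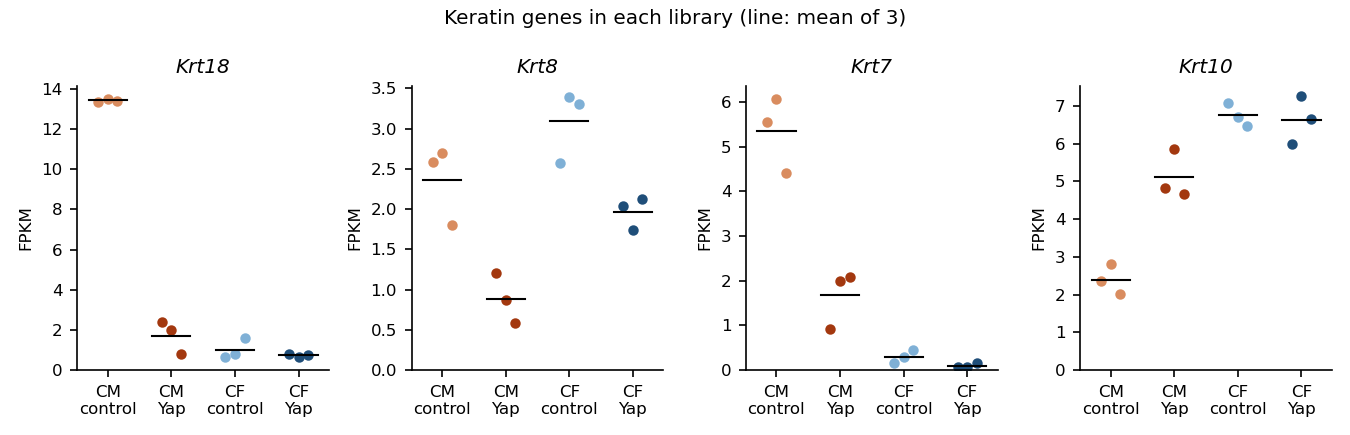
FPKM (linear axis from 0, each panel on its own scale) of Krt18, Krt8, Krt7 and Krt10 in each of the 12 libraries, with 1 point per library, a line at each group mean and 1 panel per gene. Krt18 and Krt7 are high in control cardiomyocytes, at 13.36 to 13.51 and 4.42 to 6.06 FPKM, and lower in the other groups, while Krt10 rises in cardiomyocytes with Yap siRNA.

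Genes of desmosomes and keratin linkers, where keratin filaments attach, came from a list of 15, of which 6 were tested. In cardiomyocytes 3 fell. In fibroblasts 2 rose and 2 fell, and with a filter of 5 FPKM there were 2 calls, both lower. The 2 that rose, Dsc2 and Ppl, averaged 4.21 and 2.15 FPKM over the 12 libraries and were not tested under that filter. Of all genes, 28.7% fell in cardiomyocytes and 30.9% were called in fibroblasts. The list medians were -0.20 and 0.10, against -0.06 and 0.07 for all genes. Dsc2, the desmocollin 2 gene, fell in cardiomyocytes from 9.81 to 4.84 FPKM (-0.89 ± 0.13, adjusted p = 5.32e-05) and rose in fibroblasts from 0.523 to 1.66 FPKM (0.80 ± 0.13, adjusted p = 0.000286). Ppl, which encodes the keratin linker periplakin, rose in fibroblasts from 0.847 to 3.73 FPKM (1.36 ± 0.12, adjusted p = 8.34e-07).

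The median log2 difference of the 8 genes was -0.57 in cardiomyocytes, where that of all genes was -0.06, and 0.46 in fibroblasts, where that of all genes was 0.07. The share of all called genes that were higher moved with the scaling. It was 42.3% in cardiomyocytes, 66.1% in fibroblasts and 33.1% for the difference between them, and 53.1%, 54.8% and 51.8% under median-of-ratios scaling. The median difference between the effects over all genes was -0.13 with FPKM as deposited and -0.01 under that scaling. No member changed direction under median-of-ratios scaling or quantile normalization.

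**Figure D3:**
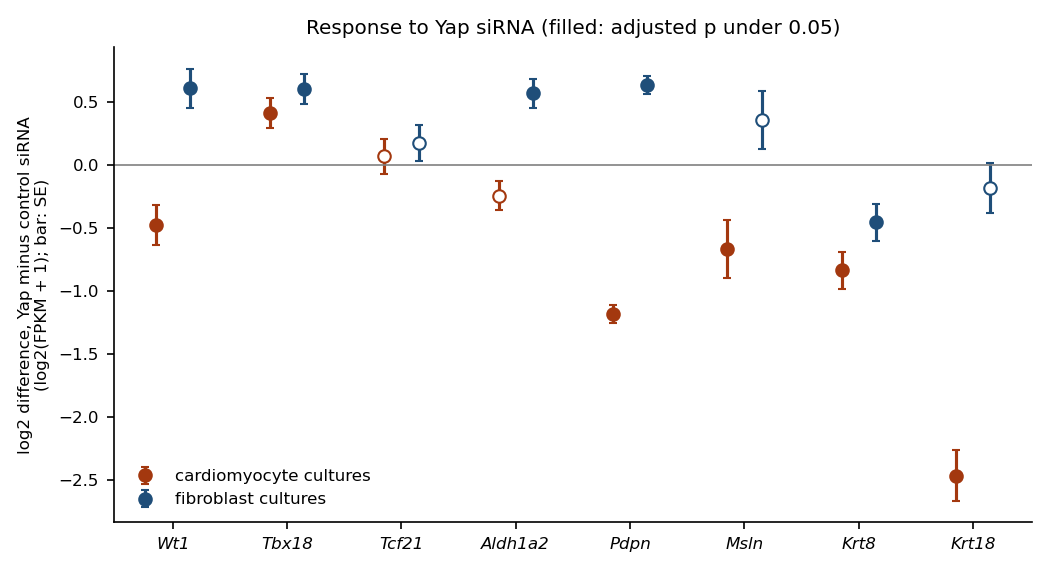
Log2 difference of Yap against control siRNA in cardiomyocytes and in fibroblasts for the 8 tested genes, on the log2(FPKM + 1) scale, with bars of 1 standard error; filled points have an adjusted p under 0.05 in limma. Pdpn lies at -1.19 in cardiomyocytes and 0.63 in fibroblasts, Krt18 at -2.46 and -0.19, and Tbx18 above 0 in both.

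Between the cell types with control siRNA, 6 of the 8 genes were lower in cardiomyocytes and 1 was higher, where 26.4% of all genes were lower and 42.0% higher, 68.4% in all. The libraries of the 2 cell types did not overlap for 7 of the 8, against 73.3% of all genes. Tcf21 had a log2 difference of -6.02 (limma adjusted p = 7.26e-15), Aldh1a2 of -4.78 (9.15e-15), Wt1 of -2.20 (4.82e-09), Tbx18 of -1.76 (3.48e-09), Pdpn of -1.59 (1.55e-11) and Msln of -0.80 (0.00567). Krt18 was 13.25-fold higher in cardiomyocytes by its means (2.87, adjusted p = 3.6e-09). Krt8 differed by -0.29 and did not pass (adjusted p = 0.0977), though it passed as lower under median-of-ratios scaling (-0.38, 0.0286) and quantile normalization (-0.48, 0.00748). Of all genes called between the cell types with control siRNA, 61.4% were higher in cardiomyocytes, or 50.8% under median-of-ratios scaling, which moved the median difference of all genes from 0.125 to 0.007.

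With Yap siRNA in both, 7 of the 8 were lower in cardiomyocytes and 1 was higher, where 36.2% of all genes were lower and 36.7% higher, 72.9% in all. Libraries did not overlap for 7 of the 8, against 73.3% of all genes. The cardiomyocyte mean of Wt1 went from 17.8% of the fibroblast mean with control siRNA to 6.86% with Yap siRNA, that of Msln from 55.8% to 24.1%, and that of Krt8 from 76.5% to 45.0%. Tbx18 stayed near its control share, at 20.9% and 20.4%. Krt18 remained higher in cardiomyocytes by 0.59 (adjusted p = 0.015), a call lost without CM_yap library 1 (0.0845) or CM_yap library 2 (0.0608).

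The cardiomyocyte cultures held fibroblast markers at 2.52% of the summed level of the fibroblast cultures with control siRNA and 2.44% with Yap siRNA. Tcf21, at 0.841% and 0.828%, and Aldh1a2, at 2.15% and 1.08%, lay below those shares. Wt1, Tbx18, Msln, Pdpn and Krt8 lay above them in both conditions. Col1a1 alone made up 6938.8 of the mean sum of 17123.7 FPKM in CF_neg, and the share of single markers differed. Col3a1 had means of 29.6 and 4029.5 FPKM in CM_neg and CF_neg, and 31.1 and 4406.6 FPKM with Yap siRNA. Those of Thy1 were 5.83 and 41.1 FPKM, and 10.4 and 39.2 FPKM with Yap siRNA. The summed share thus does not stand for each fibroblast marker. What share of the members' level came from cells other than cardiomyocytes was not tested. Among the other marker lists, summed smooth muscle and pericyte markers ran from 467 to 526 FPKM in CF_neg and from 322 to 339 FPKM in CF_yap. Pdgfrb made up 221.9 of the mean sum of 499.5 FPKM in CF_neg and 156.7 of 332.7 FPKM in CF_yap. Of these 10 markers 3 rose and 5 fell in fibroblasts, where 20.4% of all genes rose and 10.5% fell. In cardiomyocytes 6 rose and 3 fell, where 21.0% of all genes rose and 28.7% fell. Schwann cell markers ran from 46.2 to 60.3 FPKM in CM_neg and 78.6 to 93.8 FPKM in CM_yap, with Cdh19 listed at 0 in CM_neg. Leukocyte markers ran from 106 to 129 FPKM in CM_neg, 107 to 145 FPKM in CM_yap, 157 to 169 FPKM in CF_neg and 168 to 190 FPKM in CF_yap, with Cd3e listed at 0 in 3 of the 4 groups. Their part in these results was not tested.

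**Figure D4:**
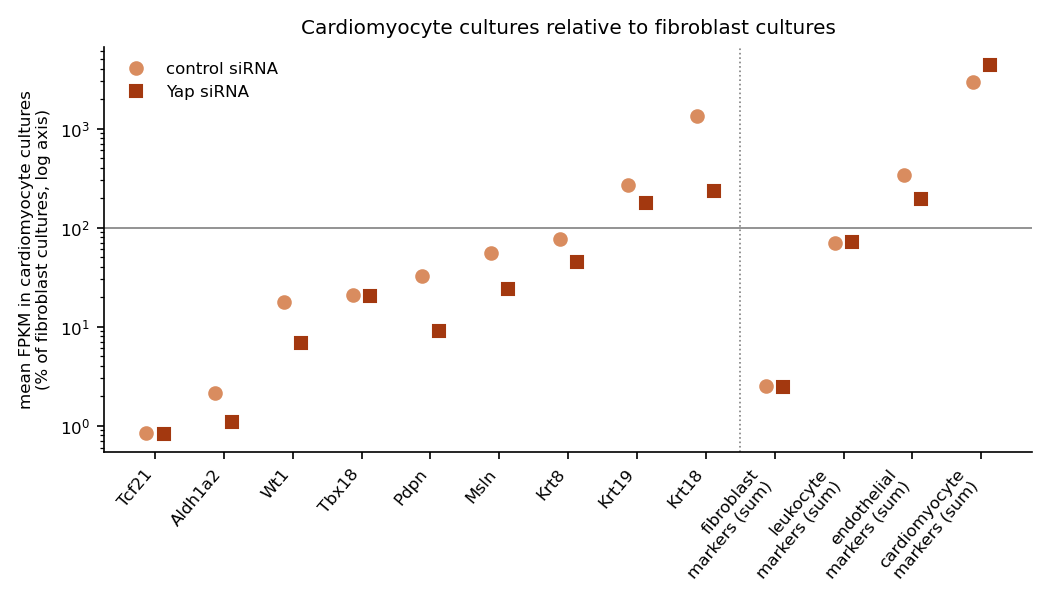
Cardiomyocyte mean as a percent of the fibroblast mean (log axis) for the 9 genes and for 4 summed marker lists, with control siRNA (circles) and with Yap siRNA (squares); the line marks equal means. Krt18 stands above 100% and Tcf21 near 0.8% in both, and the summed fibroblast markers at 2.52% and 2.44%.

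Other genes linked to the epicardium or mesothelium came from a list of 32, of which 28 are in the table and 23 were tested. In fibroblasts 10 rose and 2 fell, where 20.4% of all genes rose and 10.5% fell. In cardiomyocytes 5 rose and 9 fell, where 21.0% of all genes rose and 28.7% fell. The effect was lower in cardiomyocytes than in fibroblasts for 12 of the 23 and higher for 1, against 23.7% and 11.7% of all genes. Their median log2 difference was 0.24 in fibroblasts and -0.001 in cardiomyocytes, against 0.07 and -0.06 for all genes. With a filter of 5 FPKM the calls were 9 in cardiomyocytes and 7 for the difference between the cell types. Genes with a lower mean over the 12 libraries, such as Upk1b (4.62 FPKM), Prg4 (4.42 FPKM) and Gpm6a (2.75 FPKM), were then not tested.

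Slpi, which encodes a secreted inhibitor of leukocyte proteases, had the greatest rise of that list in fibroblasts. It went from 4.25, 4.7 and 4.81 FPKM to 64, 66.16 and 55.58 FPKM (3.49 ± 0.11, limma adjusted p = 1.31e-11). In cardiomyocytes it fell from a mean of 12.6 to 6.52 FPKM (-0.85 ± 0.11, adjusted p = 2.09e-05), and the effects differed by -4.34 ± 0.16 (adjusted p = 1.44e-10). Prg4, the gene of the lubricating proteoglycan lubricin, went in fibroblasts from 1.74, 1.37 and 1.54 FPKM to 11.66, 12.32 and 12.41 FPKM (2.37 ± 0.13, adjusted p = 5.87e-09). Sulf1, which encodes a heparan sulfate sulfatase, rose there from 35.1 to 100.8 FPKM (1.496 ± 0.11, adjusted p = 1.93e-07), and Efemp1, which encodes fibulin-3, from 4.86 to 13.3 FPKM (1.30 ± 0.12, adjusted p = 1.33e-06). Upk1b, a uroplakin gene named after its values were seen, went from 2.31, 3.53 and 4.11 FPKM to 9.54, 8.22 and 8.45 FPKM in fibroblasts (1.19 ± 0.14, adjusted p = 1.53e-05), and its cardiomyocyte difference was 0.14 ± 0.14 (adjusted p = 0.415).

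In cardiomyocytes Cdh3, which encodes P-cadherin, went from 7.89, 8.75 and 7.28 FPKM to 1.69, 1.21 and 1.1 FPKM (-1.95 ± 0.10, limma adjusted p = 3.81e-09). It fell in fibroblasts too, from a mean of 33.3 to 18.0 FPKM (-0.85 ± 0.10, adjusted p = 1.93e-05). Gpm6a, a membrane glycoprotein gene, fell in cardiomyocytes from 6.18 to 2.27 FPKM (-1.14 ± 0.12, adjusted p = 3.74e-06). Rarres2, which encodes the adipokine chemerin, rose in both cell types by nearly equal steps, from 1.28 to 3.43 FPKM in cardiomyocytes (0.97 ± 0.12, adjusted p = 1.2e-05) and from 49.7 to 97.3 FPKM in fibroblasts (0.96 ± 0.12, adjusted p = 2.78e-05).

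**Figure D5:**
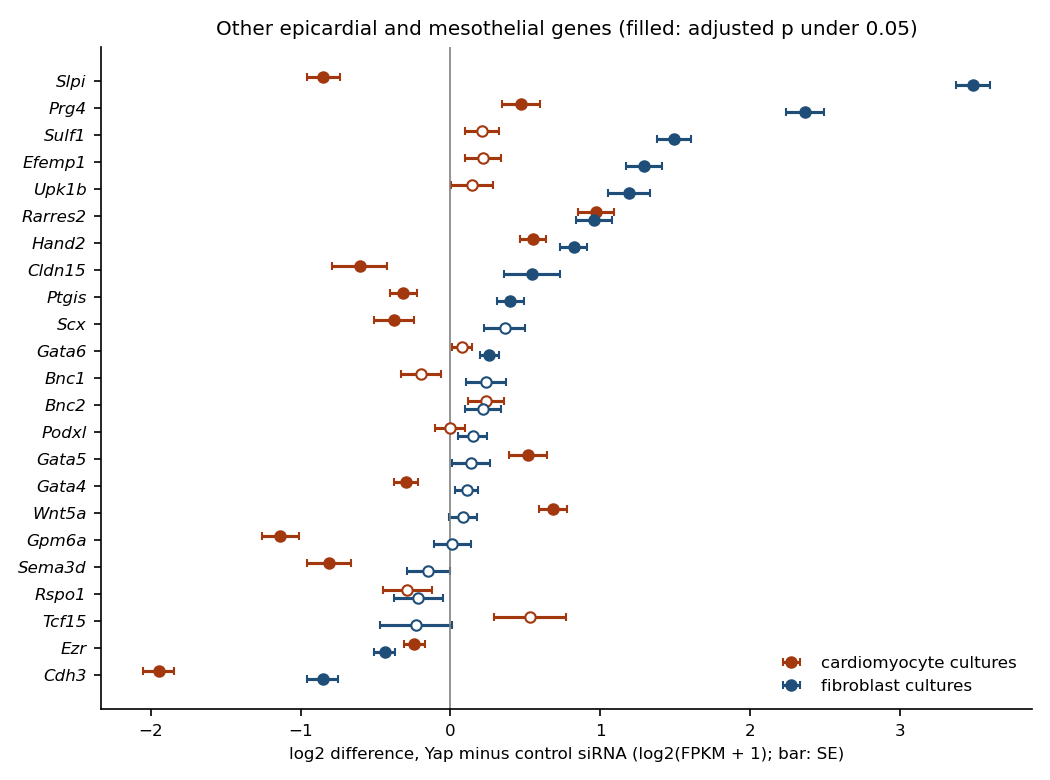
Log2 difference of Yap against control siRNA in cardiomyocytes and in fibroblasts for the 23 tested genes of the other epicardial and mesothelial list, on the log2(FPKM + 1) scale, with bars of 1 standard error and filled points at an adjusted p under 0.05. Slpi lies at 3.49 in fibroblasts and -0.85 in cardiomyocytes, and Cdh3 below 0 in both.

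Genes of the epithelial to mesenchymal transition came from a list of 22, of which 21 were tested. In cardiomyocytes 5 rose and 7 fell, in fibroblasts 7 rose and 5 fell, and the effect was lower in cardiomyocytes for 9 and higher for 3. Of all genes, 49.8%, 30.9% and 35.3% were called in these comparisons, so the cardiomyocyte count is near the share of all genes. The list medians were -0.08, 0.06 and -0.27, against -0.06, 0.07 and -0.13 for all genes. Pdgfra, the receptor gene of fibroblast precursors, which the fibroblast marker list also holds, rose in fibroblasts from 29.7 to 102.1 FPKM (1.75 ± 0.09, limma adjusted p = 5.99e-09). In cardiomyocytes it was 0.897 and 1.16 FPKM (0.19 ± 0.09, adjusted p = 0.105). Tgfbr3, the betaglycan gene, rose in fibroblasts by 1.09 ± 0.11 (adjusted p = 2.36e-06), and Prrx1, a mesenchymal homeobox gene, in cardiomyocytes by 0.90 ± 0.09 (adjusted p = 1.21e-06). Ctnnb1, the beta-catenin gene, was lower in cardiomyocytes with Yap siRNA (-0.59 ± 0.06, adjusted p = 3.12e-06). Tgfb2 and Tgfb3, TGF-beta ligand genes named after their values were seen, were lower with Yap siRNA in both cell types. Tgfb2 went from a mean of 96.3 to 29.7 FPKM in cardiomyocytes and from 64.8 to 19.2 FPKM in fibroblasts. Tgfb3 went from 79.5 to 20.9 FPKM in cardiomyocytes and from 165.9 to 57.2 FPKM in fibroblasts.

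The members' profiles over the 4 group means were also compared, by the root mean square distance of centred log2(FPKM + 1) values. Among members, Wt1 and Pdpn were closest at 0.28 and Tcf21 and Krt18 farthest at 4.002, and the partners Krt8 and Krt18 stood at 1.248. Over all tested genes the profile nearest to Pdpn was Mx1 at 0.15, with means of 32.3, 15.5, 83.1 and 156.2 FPKM in CM_neg, CM_yap, CF_neg and CF_yap. Nearest to Krt18 was Cacna1s at 0.23, a calcium channel gene with means of 6.09, 0.137, 0.167 and 0.127 FPKM. Wt1 was nearest to Slit3 at 0.05, Tbx18 to Pcdh20 at 0.05, Tcf21 to Aspn at 0.13, Aldh1a2 to Lrrc17 at 0.13, Msln to Plcl1 at 0.03 and Krt8 to Hist1h2an at 0.03. These distances rest on 4 points each and are a description.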

How the data were processed

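RNA of 12 libraries was analysed from a table of FPKM values that the authors deposited, with 1 column per library and FPKM named as the unit per the file headers. HISAT, Bowtie2 and the rn6 genome are named per the submitters' processing notes; for versions, quantification tool, annotation and strandedness the entry is "not given in the sources used here", so sense and antisense reads cannot be told apart. The spacing of low values gave whole reads for only 37.6% of 635 values within 0.1 read, against 20% without such steps, so reads were not recovered, no count test was run, the depth is unknown and no counting error is given. Gene IDs matched the reference names in 14516 of 14636 genes, and 29 of 31 blank or date-like symbols were restored by ID. No pair of libraries was identical, and Spearman correlations within groups ran from 0.989 to 0.992.

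Values were analysed as log2(FPKM + 1). Genes averaging 0.5 FPKM or more were fitted over all 12 libraries in limma 3.58.1 (R 4.3.3; lmFit, contrasts.fit and eBayes with a variance trend), two-sided, with Benjamini-Hochberg adjustment over 11302 genes and a threshold of 0.05. An exact permutation test of 3 against 3 libraries has 10 splits and cannot go below 0.1. The fit was tested on simulated data. The 5 contrasts were knockdown minus control within cardiomyocytes and within fibroblasts, the gap of these effects, and the cell types against each other under each siRNA. Python 3.11.15, pandas 2.3.3 and matplotlib 3.10.9 were used for summaries, motif searches and plots.

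The members and gene lists were chosen with earlier results of these data known. Every member is described; from each list the 4 genes of smallest p per comparison could be named, and others are marked as chosen after their values were seen. Alternatives were a fit of the compared groups alone, a block for replicate number, quantile normalization, median-of-ratios scaling, no variance trend, pseudocounts of 0.1 and 5, no filter or one of 5 FPKM, and omission of each library. Listed genes outside the table were not analysed here, and protein sequences were not used here.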

Additional observations from a re-analysis of the deposited data

Results flagged for a closer look

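For 5 of the 8 tested genes the effect of Yap siRNA differed between the cell types by the interaction term of the limma fit, given as the cardiomyocyte log2 difference minus that in fibroblasts. It was -1.82 for Pdpn, -2.28 for Krt18, -1.08 for Wt1, -1.02 for Msln and -0.81 for Aldh1a2. The Msln difference lost its call under 6 of the alternatives, with adjusted p of 0.0531 to 0.0598 in limma. Pdpn was called lower in cardiomyocytes and higher in fibroblasts under every alternative run. Wt1 was called in the same directions, but its cardiomyocyte call was lost without CM_neg library 2 (-0.23, adjusted p = 0.0867), without CM_yap library 3 (adjusted p = 0.0654) and in a fit of the cardiomyocyte libraries alone (adjusted p = 0.084). Krt18 was at or below 1.58 FPKM in all fibroblast libraries, and Aldh1a2 at or below 1.46 FPKM in all cardiomyocyte libraries, so for these genes 1 of the 2 effects is measured near the low end of the scale.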

How the results depend on the processing

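Across 822 values of single members under the alternatives, 790 kept their direction and side of the threshold, 22 lost a call, 6 gained one and 4 reversed. The 4 that reversed were differences without a call. Leaving out 1 library at a time, Tcf21 ran from -0.13 to 0.19 in cardiomyocytes and was below 0 without CM_neg replicate 1 (-0.06) and without CM_yap replicate 1. For the difference between the cell types Tcf21 ran from -0.30 to 0.017 (without CM_yap replicate 3), and Krt18 in fibroblasts from -0.31 to 0.0058 (without CF_neg replicate 3). Tbx18 passed as different between the cell types with a pseudocount of 5 (-0.26, adjusted p = 0.0496). The causes were not tested.

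Leaving out 1 library at a time, the number of members called was 4 to 6 in cardiomyocytes, 4 to 5 in fibroblasts, 4 to 5 for the difference between them, 7 in each case between the cell types with control siRNA and 7 to 8 with Yap siRNA. Replicate numbers were shared between groups, but same-numbered libraries did not deviate together: the correlations of their deviations were 0.144, 0.037 and 0.086 in cardiomyocytes and -0.002, -0.086 and -0.123 in fibroblasts. With the replicate block the counts of members called were 6, 5, 5, 7 and 8, as without it. Counts for the other lists moved by over 1.5 times in 77 of 1352 cases. Some group means lay near or below 1 FPKM (Krt18 in fibroblasts, Aldh1a2 and Tcf21 in cardiomyocytes, Krt8 in CM_yap, Krt19), and their counting error cannot be given without read counts.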
